A study of Mus musculus with 9 samples.

Results

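The 9 genes Acta2, Myh11, Tagln, Cnn1, Mylk, Rgs5, Pdgfrb, Cspg4 and Notch3 are widely used markers of the mural cells of blood vessels, and they were chosen here by name, as a read of vessel content, from the 24062 genes of a count table of mouse gastrocnemius muscle. All 9 were found in the table and all 9 passed the filter on low counts, together with 12989 genes in all. The muscles came from mice of a 129Sve/C57BL/6 mix aged 3 months. The genotypes were hetX753 (BubR1+/X753), hetL1002P (BubR1+/L1002P) and WT, with 3 RNA-seq libraries each. Both mutant alleles are alleles of Bub1b, the gene of the mitotic checkpoint protein BubR1, tied to mosaic variegated aneuploidy, and each was studied in carriers of 1 mutant copy. RNA was taken from whole muscle, so vessel cells were measured together with the muscle fibres, and the labels do not say whether the 3 libraries of a genotype came from 3 animals. The p-values below therefore measure the spread between libraries.

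Mural cells come in several forms. Smooth muscle cells wrap arteries, arterioles and veins and contract through smooth muscle isoforms of actin, myosin and their regulators, whereas pericytes sit along capillaries and small venules, carry little contractile protein, and depend on platelet-derived growth factor from the endothelium and on Notch signals for their recruitment and upkeep. In skeletal muscle the dense capillary bed and the feeding arterioles supply most of these cells, and some of the markers are shared with other stromal cells. For the description below Acta2, Myh11, Mylk, Tagln and Cnn1 are called contractile markers, and Rgs5, Pdgfrb, Cspg4 and Notch3 pericyte markers. Transcripts of vascular smooth muscle genes are commonly driven by serum response factor (SRF), which binds CArG boxes (CC, then 6 bases that are each A or T, then GG), and its coactivator myocardin.

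The promoters of 3 markers are shown because they stand for the different behaviours described below: Acta2, a contractile marker with a CArG-type pair, Cnn1, the contractile marker with the largest fold change between genotypes, and Rgs5, the pericyte marker with the largest. The sequences are RefSeq's for GRCm38.p6, written 5′ to 3′ on the gene's own strand, with capitals marking CArG-type boxes in which 1 of the 6 centre bases is G or C. Acta2 is read from chr19:34255324-34255623 on the minus strand, Cnn1 from chr9:22099003-22099302 on the plus strand and Rgs5 from chr1:169655251-169655550 on the plus strand.
Acta2: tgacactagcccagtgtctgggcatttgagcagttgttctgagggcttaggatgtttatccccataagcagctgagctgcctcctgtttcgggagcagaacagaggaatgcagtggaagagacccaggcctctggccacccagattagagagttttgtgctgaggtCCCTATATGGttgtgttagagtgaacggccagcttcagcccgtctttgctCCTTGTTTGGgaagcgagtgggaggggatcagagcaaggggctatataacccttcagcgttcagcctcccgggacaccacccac
Cnn1: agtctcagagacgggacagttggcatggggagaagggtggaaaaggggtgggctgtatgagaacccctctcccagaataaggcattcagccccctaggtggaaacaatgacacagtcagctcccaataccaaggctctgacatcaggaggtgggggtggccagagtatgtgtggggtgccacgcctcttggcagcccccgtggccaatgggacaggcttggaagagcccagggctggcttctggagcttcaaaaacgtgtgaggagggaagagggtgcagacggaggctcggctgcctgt
Rgs5: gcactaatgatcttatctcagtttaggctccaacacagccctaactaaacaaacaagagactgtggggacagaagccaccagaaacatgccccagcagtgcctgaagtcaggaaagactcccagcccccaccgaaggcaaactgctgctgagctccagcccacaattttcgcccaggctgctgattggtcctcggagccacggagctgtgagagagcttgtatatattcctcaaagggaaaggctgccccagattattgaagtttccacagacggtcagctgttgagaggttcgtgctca

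The Acta2 window held 2 boxes of this type. CCCTATATGG lay 84 to 75 bases, and CCTTGTTTGG 34 to 25 bases, upstream of the window's reference point. Each window was taken as 250 bases before that point and 50 after it. For Acta2 the point lies inside the gene span given below, so the distances are not from the gene's 5′ end. Boxes of 6 unbroken A or T bases were absent from the window in all 6 markers with a promoter entry (Acta2, Cnn1, Mylk, Rgs5, Cspg4 and Notch3), and the looser form was found in Acta2 and in none of the other 5. The Mylk window (chr16:34784700-34784999) lay inside the gene span given below, away from its 5′ end. Absence of a box describes these windows alone. Over 32817 promoters of the same length, 1.63% held at least 1 unbroken box, 9.986% at least 1 box of the looser form, and 0.823% at least 2 of them. The search pattern, though not each box found, reads the same on both strands, so 1 search covered both. The motif of the Notch effector RBPJ (GTGGGAA, searched on both strands) was in 0 of the 6 windows and in 6.39% of all promoters. The Notch3 and Cspg4 windows were rich in G and C, at 70.0% and 60.0% with 25 and 17 CpG pairs, against 54.7%, 59.3%, 53.3% and 52.3% for Acta2, Cnn1, Mylk and Rgs5 with 6, 6, 4 and 6 pairs, and a median over all promoters of 52.7% and 7. A match in these windows is a description of letters, and binding was not measured.

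Library totals ran between 20106833 and 27797765 counts in hetX753, 22795669 and 25712368 in hetL1002P and 19768149 and 33977252 in WT. Bub1b itself stood at 0.287, 0.316 and 0.231 CPM (counts scaled to a common library size) in hetX753, 0.393, 0.324 and 0.0949 CPM in hetL1002P, and 0.621, 0.568 and 0.774 CPM in WT. These rest on few counts, 8, 8 and 5 in hetX753, 10, 9 and 2 in hetL1002P, and 21, 11 and 16 in WT. Every carrier library was below every WT library. Over all genes, 15.8% had every hetX753 library below every WT library, and 3.77% had every hetL1002P library below. The log2 fold change of -1.21 in each carrier genotype (SE 0.44) was not called by edgeR's quasi-likelihood test (adjusted p 0.177 and 0.579, in hetX753 and hetL1002P against WT). The markers of muscle fibres (8 genes, among them Acta1 and Ckm) summed to 159000 to 176000 CPM in hetX753, 174000 to 197000 CPM in hetL1002P and 197000 to 222000 CPM in WT, and the 21 endothelial markers to 950 to 1100, 729 to 911 and 863 to 930 CPM, so the label of muscle tissue holds and vessel transcripts were a small share of it. The libraries WT 3 and hetL1002P 3 stood apart from the rest, with scores of 47.5 and 32.5 on the first principal component of log2 CPM (39.7% of the variance), while the other 7 lay between -28.8 and 9.52. The library hetX753 2 stood apart in the contractile markers. Results that rest on these libraries are given with and without them.

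CPM here are counts divided by the library total after TMM scaling. Divided also by transcript length in kilobases, the level in WT muscle was highest for Tagln, 27.2 ± 2.32 CPM per kb (SD, n = 3), and Acta2, 25.5 ± 2.63. These 2 differed by less than their spread. Rgs5 (4.9 ± 1.82), Pdgfrb (4.78 ± 0.819), Myh11 (4.32 ± 1.62) and Notch3 (2.94 ± 0.966) came next, each within the larger SD of its neighbour in that order. Mylk (1.87 ± 0.416), Cspg4 (1.09 ± 0.283) and Cnn1 (0.813 ± 0.204) were lowest, and the last pair again differed by less than its spread. The skeletal actin Acta1 stood at 35700 ± 4780 CPM per kb in the same WT libraries. The counts behind the smallest marker, Cnn1, ran from 37 to 204 per library.

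Acta2, the actin of vascular smooth muscle (chromosome 19, 34240336 to 34255585 in GRCm38.p6), had 48, 102 and 51.9 CPM in hetX753 libraries 1 to 3, 42.6, 46.6 and 42.8 CPM in hetL1002P, and 52.3, 57 and 46.4 CPM in WT. Library hetX753 2 was the highest of all 9, the other hetX753 libraries lay within the WT range, and all 3 hetX753 libraries were above all 3 hetL1002P libraries. Tagln, an actin-binding protein of differentiated smooth muscle (chromosome 9, 45929628 to 45936058), had 37.3, 73.4 and 42.2 CPM in hetX753, 30.8, 31.9 and 37.9 CPM in hetL1002P, and 40.7, 47.6 and 41.9 CPM in WT. Again hetX753 2 was highest, and every hetL1002P library was below every WT library. Cnn1, the calponin that restrains actomyosin in smooth muscle (chromosome 9, 22099221 to 22109221), had 2.34, 8.05 and 2.45 CPM in hetX753, 1.61, 1.4 and 2.51 CPM in hetL1002P, and 1.54, 2.48 and 1.79 CPM in WT. The library hetX753 2 alone carried over 3 times the level of any other.

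Myh11, the smooth muscle myosin heavy chain (chromosome 16, 14194527 to 14292188), had 36.3, 68.2 and 34.6 CPM in hetX753, 37.9, 37.7 and 26.9 CPM in hetL1002P, and 33.8, 35.1 and 16.1 CPM in WT. Both ends came from single libraries, the high one from hetX753 2 and the low one from WT 3. Mylk, the kinase that switches smooth muscle myosin on by phosphorylating its light chain (chromosome 16, 34745199 to 35002436), had 15.7, 24.1 and 16.5 CPM in hetX753, 18.2, 18.7 and 12.7 CPM in hetL1002P, and 14.6, 18 and 11.5 CPM in WT. Its order of libraries was that of Myh11 at both ends, with hetX753 2 highest and WT 3 lowest, and all 3 genotypes overlapped.

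Among the pericyte markers, Pdgfrb, the receptor for endothelial PDGF-B (chromosome 18), had 27, 26.3 and 32.6 CPM in hetX753, 33.8, 35.4 and 22.1 CPM in hetL1002P, and 26, 30.3 and 21.4 CPM in WT. Notch3, the Notch receptor of mural cells (chromosome 17, 32120820 to 32166896), had 24.3, 26.2 and 28.8 CPM in hetX753, 32.3, 38.6 and 21 CPM in hetL1002P, and 30, 25.7 and 15 CPM in WT. In both receptors hetL1002P 2 was highest, WT 3 lowest, and the genotypes overlapped. Cspg4, the proteoglycan NG2 of the pericyte surface (chromosome 9, 56865104 to 56899870), had 9.63, 9.12 and 9.09 CPM in hetX753, 12.3, 11.3 and 8.26 CPM in hetL1002P, and 9.91, 10.4 and 6.19 CPM in WT. Rgs5, a regulator that quenches G protein signalling in pericytes (chromosome 1, 169655501 to 169695813), had 29.8, 35 and 40.8 CPM in hetX753, 36, 60.9 and 16.3 CPM in hetL1002P, and 26.4, 22 and 11.8 CPM in WT. Every hetX753 library was above every WT library in Rgs5, while the hetL1002P libraries held the highest of the 9 values and the second lowest, after WT 3.

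**Figure D1:**
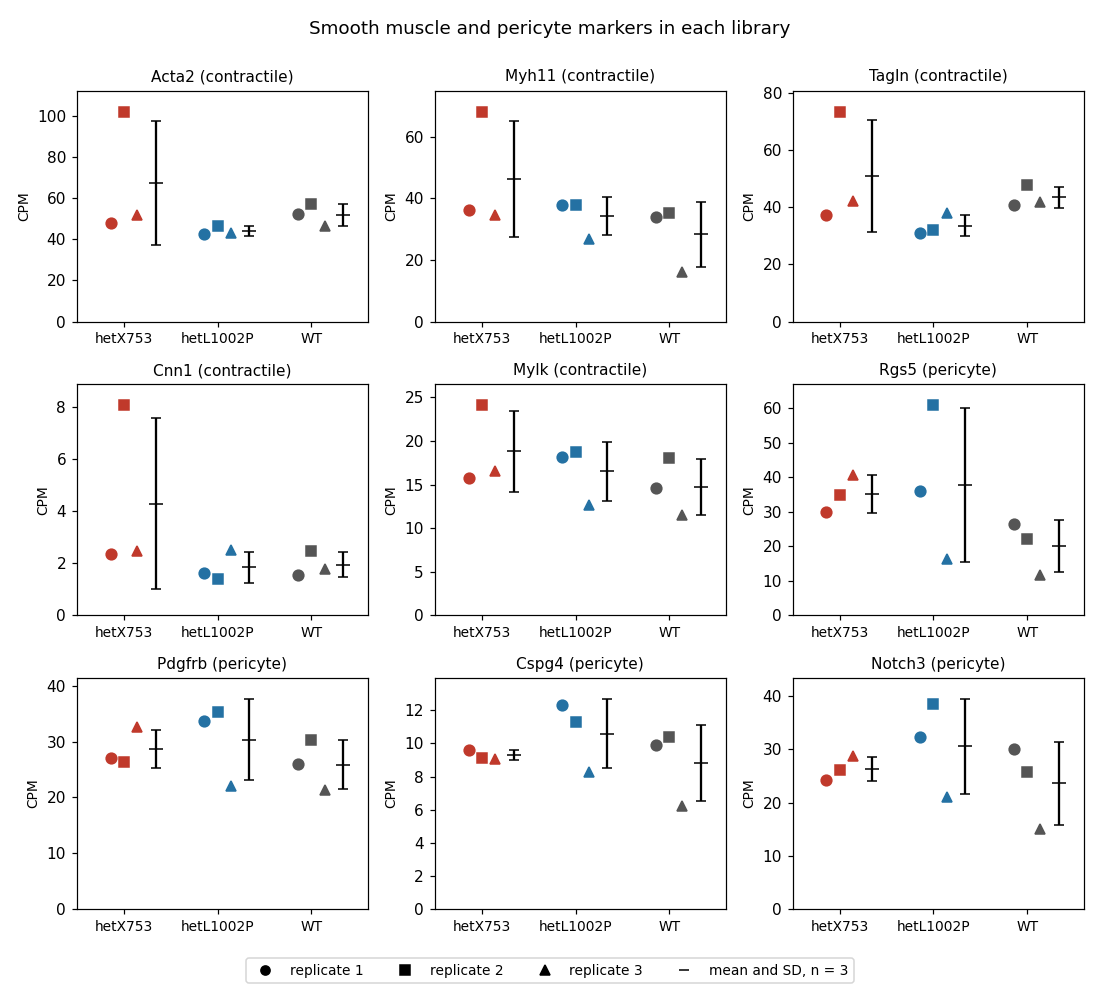
CPM (linear axis from 0) of each marker in every library, by genotype, with the mean and SD of 3 libraries beside the points. The hetX753 2 square lies highest in the 5 contractile panels (102 CPM in Acta2 and 8.05 CPM in Cnn1), whereas the WT 3 triangle lies lowest in the 4 pericyte panels (15 CPM in Notch3).

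In hetX753 against WT no marker was called changed, and Cnn1, Rgs5 and Myh11 had the 3 largest fold changes. By edgeR's quasi-likelihood test with Benjamini-Hochberg adjustment over all genes, 0 of the 9 markers passed, while 0.508% of the 12989 genes did (0.331% higher and 0.177% lower). At an unadjusted p under 0.05 there were 2 of 9, Myh11 and Cnn1, beside 20.9% of all genes, and DESeq2 and limma-voom also called 0 of 9. Cnn1 averaged 4.28 ± 3.27 CPM in hetX753 and 1.94 ± 0.486 CPM in WT (SD, n = 3 each), a log2 fold change of 1.16 (SE 0.47, adjusted p 0.203 by edgeR). For Myh11, the averages were 46.3 ± 18.9 CPM in hetX753 and 28.3 ± 10.6 CPM in WT, with 0.71 on the log2 scale (SE 0.32, adjusted p 0.238 by edgeR). Acta2, Mylk and Tagln had log2 fold changes of 0.37, 0.36 and 0.23 (adjusted p 0.38, 0.359 and 0.551). Rgs5, at 35.2 ± 5.49 CPM in hetX753 and 20.1 ± 7.46 CPM in WT, had 0.80 (SE 0.41, adjusted p 0.278), and it was the 1 marker of 9 with every hetX753 library above every WT library, which 16.7% of all genes also were. In 0 of 9 did every hetX753 library lie below every WT library, as 15.8% of all genes did. Pdgfrb, Notch3 and Cspg4 had 0.15, 0.16 and 0.07. For Cspg4, the 95% interval ran from -0.39 to 0.53, and for Pdgfrb from -0.28 to 0.57.

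All 5 contractile fold changes in hetX753 against WT were above 0, with a median of 0.37 on the log2 scale, and so were all 4 pericyte ones, with a median of 0.15, where 50.4% of all genes were above 0 with a median of 0. With hetX753 2 left out, 3 of 5 contractile markers were above 0 and the median was 0.13, with Acta2 at -0.06 and Tagln at -0.13, Cnn1 at 0.32 (adjusted p 0.612) and Myh11 at 0.32 (adjusted p 0.579). The 4 pericyte markers then had a median of 0.18. With WT 3 and hetL1002P 3 both left out, the 5 contractile markers stayed above 0 with a median of 0.30, and the pericyte median was -0.02, with 2 of 4 above 0. In bulk muscle a difference in a marker cannot be told apart into a different number of mural cells and a different amount of its RNA per cell.

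In hetL1002P against WT no marker was called either, and the pericyte fold changes were above 0 while the contractile ones lay on both sides of it. By edgeR's quasi-likelihood test, 0 of 9 markers and 0% of the 12989 genes were called. At an unadjusted p under 0.05 there was 1 of 9, Rgs5, beside 7.96% of all genes, and DESeq2 and limma-voom called 0 of 9. The pericyte markers had log2 fold changes of 0.91 in Rgs5 (SE 0.41, adjusted p 0.579), 0.38 in Notch3, 0.26 in Cspg4 and 0.23 in Pdgfrb, all 4 above 0 with a median of 0.32. The contractile markers had 0.27 in Myh11, 0.18 in Mylk, -0.07 in Cnn1, -0.24 in Acta2 and -0.37 in Tagln, a median of -0.07 with 2 of 5 above 0, against 51.9% and 0.01 over all genes. Rgs5 averaged 37.7 ± 22.4 CPM in hetL1002P and 20.1 ± 7.46 CPM in WT (SD, n = 3 each), and its fold change was between 0.37 and 1.26 on the log2 scale when 1 library at a time was left out, the lowest being without hetL1002P 2. With WT 3 and hetL1002P 3 both left out, the pericyte median was 0.32 and the contractile median -0.29.

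Tagln was the 1 marker with every hetL1002P library below every WT library, as were 3.77% of all genes, and 0 of 9 had them all above, as 5.67% of genes did. It averaged 33.5 ± 3.78 CPM in hetL1002P and 43.4 ± 3.69 CPM in WT, with a log2 fold change of -0.37 (SE 0.22, adjusted p 0.579). Same-numbered libraries of these 2 genotypes deviated together over all genes, but so did hetL1002P 2 and WT 1 (r 0.198), so the pairing is uncertain. A fit of the 2 genotypes alone with the number as a block gave Tagln -0.39 (SE 0.10, adjusted p 0.0476 by edgeR), the single call of a marker under any setting run. That fit called 5.01% of its 12684 genes, 2.37% of them lower in hetL1002P. The adjusted p of Tagln in the other settings ran between 0.25 and 0.999, and after removal of the trend with transcript length and GC content its log2 fold change was -0.20 (adjusted p 0.932).

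**Figure D2:**
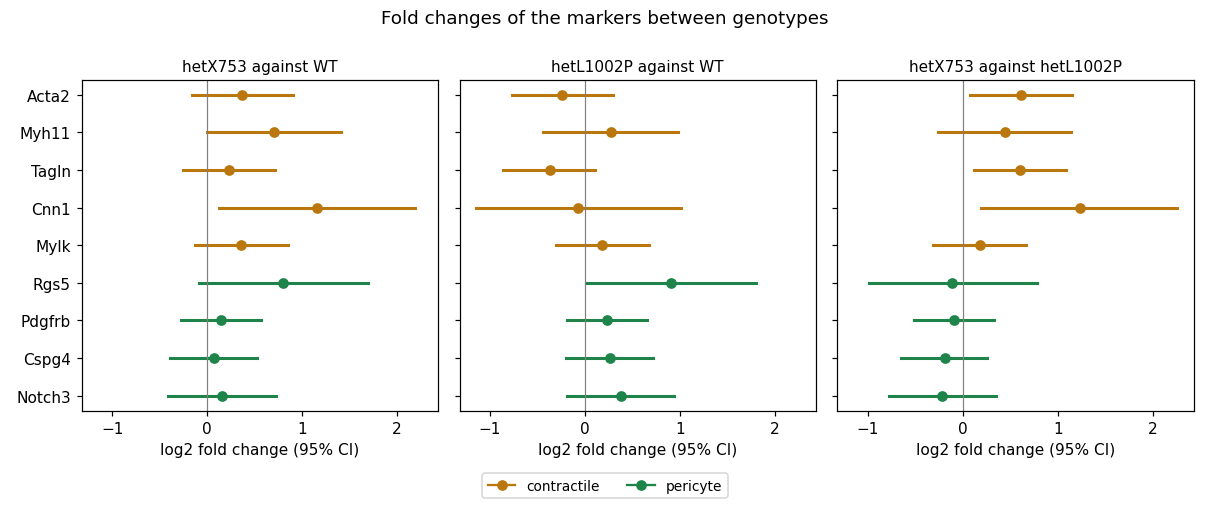
Log2 fold changes of the 9 markers with 95% intervals from edgeR's quasi-likelihood fit, contractile markers above and pericyte markers below, for the 3 comparisons. The contractile markers lie right of 0 where hetX753 is compared, from 0.23 to 1.16 against WT, and the pericyte markers lie right of 0 in both comparisons with WT and left of it, from -0.22 to -0.09, in hetX753 against hetL1002P.

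Between the carriers, hetX753 against hetL1002P, no marker was called, and the contractile and pericyte fold changes had opposite signs. All 5 contractile ones were above 0 with a median log2 fold change of 0.60, and 0 of the 4 pericyte markers were, with a median of -0.15, where 47.4% of all genes were above 0 with a median of -0.01. By edgeR's quasi-likelihood test 0 of 9 were called, against 0.115% of all genes (0.0616% higher and 0.0539% lower), and 0 of 9 by DESeq2 or limma-voom. Cnn1, Tagln and Acta2 were the 3 of 9 at an unadjusted p under 0.05, where 8.24% of all genes were. Acta2 averaged 67.2 ± 30 CPM in hetX753 and 44 ± 2.28 CPM in hetL1002P (SD, n = 3 each), a log2 fold change of 0.61 (SE 0.24, adjusted p 0.537 by edgeR), and was the 1 marker whose hetX753 libraries all lay above those of hetL1002P, as 7.44% of all genes did, and 0 of 9 had them all below, as 6.98% did. Tagln averaged 51 ± 19.6 CPM in hetX753 and 33.5 ± 3.78 CPM in hetL1002P, with 0.60 (SE 0.22, adjusted p 0.474). Cnn1 had 1.23 (SE 0.47, adjusted p 0.506), Myh11 0.44 and Mylk 0.18, while Rgs5, Pdgfrb, Cspg4 and Notch3 had -0.11, -0.09, -0.19 and -0.22. Without hetX753 2, the contractile median was 0.19 with 4 of 5 above 0, Acta2 had 0.19, Tagln 0.25 and Cnn1 0.39, and Mylk -0.03. With WT 3 and hetL1002P 3 both left out, the pericyte median was -0.38, again with 0 of 4 above 0, and the contractile median 0.59. Tested over all 3 genotypes at once, 0 of 9 markers were called against 0.216% of all genes, the lowest adjusted p being 0.329 for Cnn1.

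Summed over the 5 contractile markers, the libraries held 140, 275 and 148 CPM in hetX753, 131, 136 and 123 CPM in hetL1002P, and 143, 160 and 118 CPM in WT. The log2 ratio of the mean sums was 0.42 in hetX753 against WT, and 0.03 without hetX753 2. Between hetX753 and hetL1002P it was 0.53, and 0.15 without that library. Over the 4 pericyte markers the sums were 90.7, 96.6 and 111 CPM in hetX753, 114, 146 and 67.6 CPM in hetL1002P, and 92.3, 88.4 and 54.4 CPM in WT, so the lowest library of both hetL1002P and WT was number 3. The log2 ratio of the pericyte sums was 0.34 in hetX753 against WT, and 0.14 with WT 3 and hetL1002P 3 left out. In hetL1002P against WT it was 0.48, and 0.53 without them.

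The library hetX753 2 was the highest of all 9 in 5 of 5 contractile markers and in 0 of 4 pericyte markers, and it was highest for 10.2% of all genes. Relative to the median of the other 8 libraries, it held 3.9 times the Cnn1, 2.15 times the Acta2, 1.96 times the Myh11, 1.87 times the Tagln and 1.49 times the Mylk. In the pericyte markers the same ratio was 1.25 for Rgs5, 0.961 for Notch3, 0.933 for Cspg4 and 0.918 for Pdgfrb. Of 23 further smooth muscle genes, 8 were also highest there. The following were picked after their values were seen. Actg2, the gamma actin of smooth muscle, had 4.54 CPM in hetX753 2, against 0.285 to 1.29 CPM in the other libraries. Sncg had 23.1 CPM against 5.12 to 14.8 (the 14.8 in WT 2), and Aoc3, an amine oxidase of smooth muscle and fat, had 28.1 CPM against 5.98 to 15.7. Synpo2 and Nexn had ratios of 0.978 and 0.829. Npnt (0.54), Ppp1r12b (0.927), Smtn (0.958), Pde3a (0.967) and Mustn1 (0.974) were below 1 as well, and the rest of that list was above 1. Some genes of that list, Synpo2 and Nexn among them, are also expressed by striated muscle. The 8 adipocyte markers summed to 277, 513 and 246 CPM in hetX753, 246, 238 and 203 CPM in hetL1002P, and 306, 495 and 318 CPM in WT, none of the 8 being at 0 in every library. So hetX753 2 was high in that list as well, and so was WT 2, in which the contractile markers summed to 160 CPM. The endothelial sum was also highest in hetX753 2, at 1100 CPM against 729 to 980 CPM in the other libraries. Aqp1 (378 CPM) and Fabp4 (233 CPM, shared with adipocytes) made up much of that 1100 CPM. Gene by gene, hetX753 2 was highest in 5 of the 21 endothelial markers, as was WT 1. The part of fat and endothelial cells in the contractile values was not tested.

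**Figure D3:**
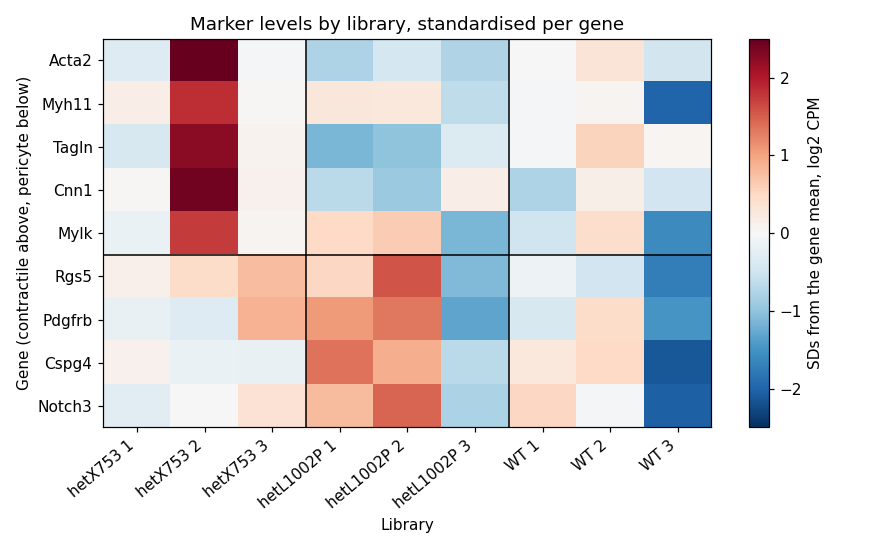
Log2 CPM of each marker in each library, as SDs from the gene's mean over 9 libraries, with contractile markers above the line and pericyte markers below it. Dark red fills the hetX753 2 column in the contractile rows (102 CPM in Acta2) and dark blue the WT 3 column in Myh11 (16.1 CPM), Cspg4 (6.19 CPM) and Notch3 (15 CPM).

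The libraries WT 3 and hetL1002P 3 were low in all 4 pericyte markers. WT 3 was lowest of the 9 in each of the 4 and in 6 of the 9 markers, where it was lowest for 24.3% of all genes, and hetL1002P 2 was highest in 3 of the 4, against 15.3% of all genes. These libraries also differed in the balance of long and short transcripts. The median log2 deviation of genes with transcripts of 4.86 kb or more, less that of genes of 2.22 kb or less, was 0.07, 0.11 and 0.34 in hetX753, 0.29, 0.44 and -0.32 in hetL1002P, and -0.05, -0.18 and -0.70 in WT. The mean log2 deviation of the 4 pericyte markers followed nearly the same order, at -0.01, 0.05 and 0.21 in hetX753, 0.33, 0.57 and -0.40 in hetL1002P, and 0.02, -0.03 and -0.75 in WT. The pericyte transcripts are long, at 4.1 kb in Rgs5, 5.42 kb in Pdgfrb, 8.02 kb in Notch3 and 8.12 kb in Cspg4, where the median tested gene had 3.42 kb. The trend of each library's deviations (log2 CPM less the gene's mean over libraries) with length and GC content was then removed. After that step the pericyte deviations ran between -0.38 in WT 3 and 0.37 in hetL1002P 2. The median pericyte fold change was -0.03 in hetX753 against WT and 0.11 in hetL1002P against WT. The contractile deviation of hetX753 2 was 1.02 before and 1.03 after that step.

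**Figure D4:**
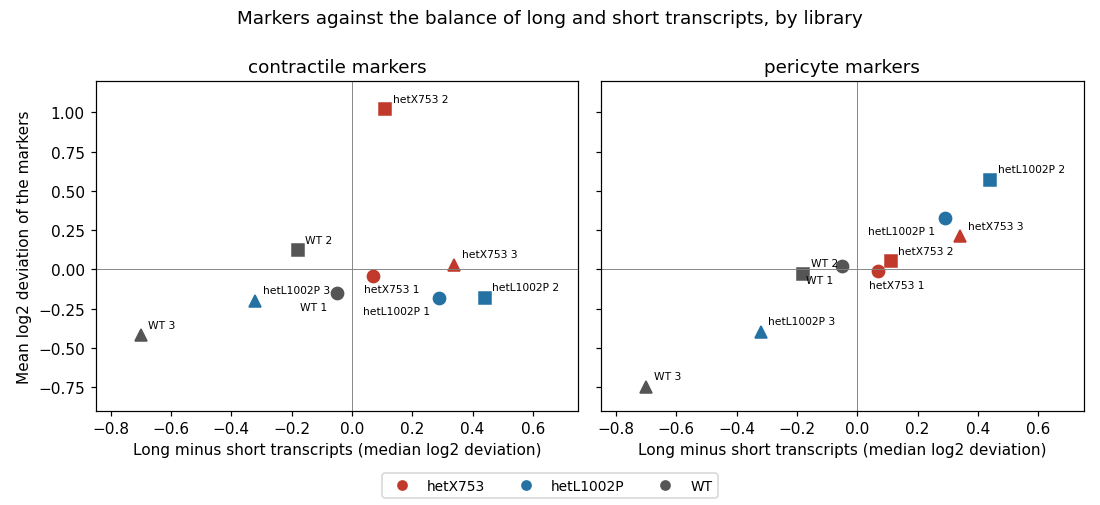
Mean log2 deviation of the contractile (left) and pericyte (right) markers in each library against the median log2 deviation of long less that of short transcripts. On the right the libraries line up from WT 3 (-0.70 and -0.75) to hetL1002P 2 (0.44 and 0.57), while on the left hetX753 2 lies alone at 0.11 and 1.02.

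Of the 36 pairs of markers, 8 had a Pearson correlation of log2 CPM over the 9 libraries at an adjusted p under 0.05 by an exact two-sided permutation test with Benjamini-Hochberg adjustment over the 36. They were 3 of 10 contractile pairs, 5 of 6 pericyte pairs and 0 of 20 pairs between the groups, with median r of 0.70, 0.87 and 0.03. The share passing among pairs of other genes was not counted, here or with libraries left out. The first principal component of all genes held 39.7% of the variance, so these counts do not show a link particular to the markers. By Spearman's rho, tested and adjusted in the same way, 1 of the 36 passed, Myh11 and Mylk, and 0 of the 6 pericyte pairs did. Contractile pairs such as Tagln and Mylk, at r 0.42 and rho 0.05, did not pass by either measure. Myh11 and Mylk had r 0.93 and rho 0.93 over 9 libraries (exact permutation p 0.000121 and 0.00075, adjusted 0.00437 and 0.027), and r 0.89 with the 2 libraries farthest from the Myh11 median left out. For Acta2 and Tagln r was 0.94 and rho 0.78 (exact permutation p 0.00139 and 0.0172, adjusted 0.0117 and 0.103), and r 0.62 without the 2 farthest, of which hetX753 2 was 1. For Rgs5 and Notch3 r was 0.91 and rho 0.83 (exact permutation p 0.000733 and 0.00827, adjusted 0.0117 and 0.0992), and r 0.72 without the 2 farthest, WT 3 and hetL1002P 2. Within genotypes, the correlation of deviations from the genotype means was 0.92 for Myh11 and Mylk, 0.92 for Acta2 and Tagln and 0.95 for Rgs5 and Notch3.

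The count of pairs differed when libraries were left out. Without hetX753 2, 14 of the 36 pairs had an adjusted p under 0.05 by r and 8 by rho, with a median r of 0.24 among the contractile pairs and 0.89 among the pericyte pairs. The 14 included all 8 pairs of Myh11 or Mylk with a pericyte marker, such as Mylk and Pdgfrb at r 0.96 and rho 0.98 over 8 libraries (exact permutation p 0.000496 and 0.000397, adjusted 0.00875 and 0.0143). Myh11 and Mylk have transcripts of 6.55 and 7.82 kb, and the other 3 contractile markers have 2.04 (Acta2), 1.59 (Tagln) and 2.38 kb (Cnn1). Split at 3 kb, a bound chosen after the values were seen, all 14 pairs fell among the 15 pairs of the 6 longer markers, and 0 among the 3 pairs of shorter ones or the 18 mixed pairs. With WT 3 and hetL1002P 3 left out instead, 1 of 36 pairs was left at an adjusted p under 0.05 by r and 0 by rho, the contractile median r was 0.88 and the pericyte median 0.64.

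**Figure D5:**
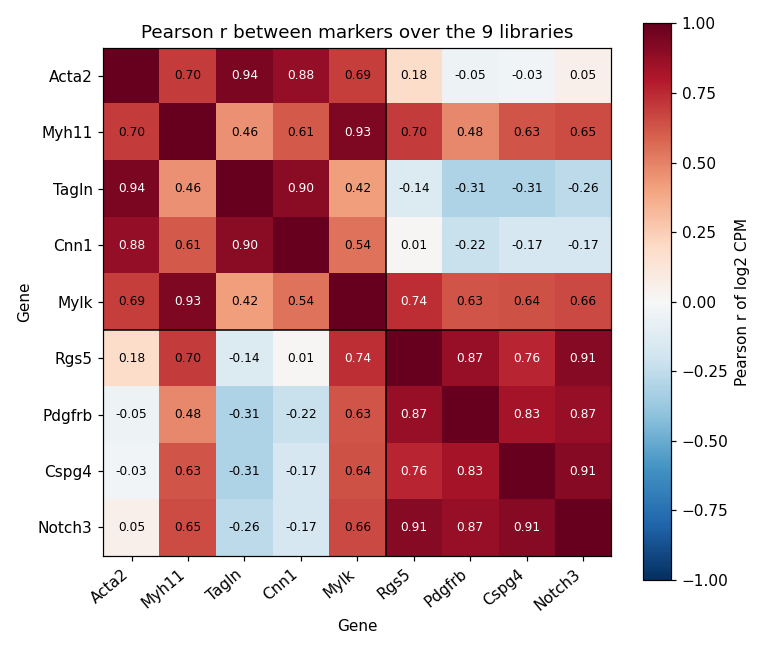
Pearson r of log2 CPM between the 9 markers over 9 libraries, contractile markers first. Values within the lower right pericyte block run from 0.76 to 0.91, within the contractile block from 0.42 to 0.94 and between the blocks from -0.31 to 0.74, where Myh11 and Mylk hold the values of 0.48 and above.

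The genes most alike the contractile markers, by Pearson r over 9 libraries with the mean of the standardised markers, were Fads3 (0.976), Hdac6 (0.957), Cd1d1 (0.95), Csrp1 (0.931) and Nadk (0.929). Csrp1, a LIM protein of smooth muscle, had 24.6, 44.4 and 29.9 CPM in hetX753, 21.3, 27.4 and 23.1 CPM in hetL1002P, and 24.1, 29.3 and 23.6 CPM in WT. Without hetX753 2, these 5 had r between 0.68 and 0.91. Most alike the pericyte markers were Bicc1 (0.992), Sfmbt1 (0.991), Peak1 (0.987), Zfhx4 (0.984) and Wdfy3 (0.975), all with transcripts of 5.43 to 14.27 kb. None of these 10 genes was on any of the marker lists. The markers themselves, though each is part of its mean, had r of 0.925 to 0.976 in the pericyte group. In the contractile group they had 0.819 to 0.962. Following either mean closely is therefore not particular to the markers.

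The wider lists around the markers had 0 genes called in either direction in any comparison by edgeR's quasi-likelihood test, and each count is to be read beside the shares of all genes given above. In the blocked fit of hetL1002P and WT, several listed genes passed, among them Ppp1r12b at 1.13 (adjusted p 0.00762) and Synpo2 at 0.42 (adjusted p 0.0368) of the smooth muscle list, Mkl2 at 0.52 and Tead1 at 0.37 (adjusted p 0.0361 and 0.043) of the regulators, Abcc9 at 0.52 (adjusted p 0.0311) of the pericyte list, and Ptprb at 0.40, Cldn5 at -0.59, Egfl7 at -0.44, Sox18 at -0.52 and Fabp4 at -0.51 of the endothelial list (adjusted p between 0.033 and 0.0434), where 5.01% of all genes passed. Of the 23 further smooth muscle genes, all tested, 15 were above 0 in hetX753 against WT with a median log2 fold change of 0.33, and 10 with a median of -0.02 without hetX753 2. In hetL1002P against WT 13 were above 0 with a median of 0.10, and in hetX753 against hetL1002P 14 with a median of 0.21. The 3 with the lowest p over all genotypes were Smtn, Npnt and Nexn. Smtn, a cytoskeletal protein of smooth muscle, had 76.2, 95.9 and 74.3 CPM in hetX753, 99.8, 91.5 and 112 CPM in hetL1002P, and 115, 112 and 100 CPM in WT, with -0.41 in hetX753 against WT (adjusted p 0.148). It therefore lay on the other side of 0 from the contractile markers.

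Of 10 regulators of smooth muscle genes, 8 were tested, and 5, 5 and 3 of them were above 0 in hetX753 against WT, hetL1002P against WT and hetX753 against hetL1002P. Myocd, the gene of myocardin, did not pass the filter on low counts. It had 3, 11 and 2 counts in hetX753, 5, 7 and 2 in hetL1002P, and 4, 0 and 1 in WT. For the regulators below, RNA of fibres and RNA of vessel cells cannot be told apart in whole muscle. Srf, the factor that binds CArG boxes, had 122, 105 and 98.4 CPM in hetX753, 128, 137 and 161 CPM in hetL1002P, and 145, 147 and 153 CPM in WT. Every hetX753 library was below every other library, with a log2 fold change of -0.45 against WT (SE 0.12, adjusted p 0.124 by edgeR). Of all genes, 15.8% had every hetX753 library below every WT library and 6.98% below every hetL1002P library. The share below both was not counted. Genes of these lists were named by their low p over all genotypes, a choice that favours such separation. Foxo4, a forkhead factor that can hold back smooth muscle genes, had 253, 250 and 258 CPM in hetX753, 196, 192 and 176 CPM in hetL1002P, and 202, 191 and 196 CPM in WT, with 0.37 (SE 0.10, adjusted p 0.118), and Mef2c had 0.18 (adjusted p 0.365). The hetX753 libraries of Foxo4 were within 8 CPM of each other and above all the rest. Of all genes, 16.7% had them above every WT library and 7.44% above every hetL1002P library. In hetX753 against WT with WT 3 and hetL1002P 3 left out, Foxo4 was called at 0.37 (adjusted p 0.0417), as were 2.58% of all genes.

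Of 22 further pericyte genes, 20 were tested, with 11, 12 and 10 above 0 in the 3 comparisons and medians of 0.10, 0.09 and -0.05. Higd1b, a marker of capillary pericytes, had 1.98, 2.41 and 2.4 CPM in hetX753, 1.14, 1.22 and 1.71 CPM in hetL1002P, and 0.947, 1.08 and 1.84 CPM in WT, with a log2 fold change of 0.83 in hetX753 against WT (SE 0.29, adjusted p 0.171). Cd248, the endosialin of pericytes and fibroblasts, had 15.1, 12.1 and 12.4 CPM in hetX753, 21, 26.1 and 14.7 CPM in hetL1002P, and 23.3, 25.6 and 20.4 CPM in WT, with -0.81 (SE 0.20, adjusted p 0.103). Both had all hetX753 libraries on one side of all WT libraries, Higd1b above, as 16.7% of all genes were, and Cd248 below, as 15.8% were. With WT 3 and hetL1002P 3 left out both were called in hetX753 against WT, Higd1b at 1.16 (adjusted p 0.0454) and Cd248 at -0.88 (adjusted p 0.0193), while the 4 pericyte markers were not. Abcc9, a subunit of the potassium channel of pericytes and of muscle fibres, had 0.54 in hetX753 and 0.52 in hetL1002P against WT (adjusted p 0.185 and 0.579).

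Around Pdgfrb, 10 genes of the PDGF pathway were tested (ligands, the receptor Pdgfra and signalling partners), with 5, 7 and 3 above 0. Pdgfb, the ligand that endothelium releases to recruit pericytes, had 20.1, 15.2 and 19.2 CPM in hetX753, 22.3, 24.4 and 27.4 CPM in hetL1002P, and 33.4, 24.3 and 29.6 CPM in WT. All hetX753 libraries of Pdgfb were below all others, where 15.8% of all genes had them below WT and 6.98% below hetL1002P. Its log2 fold change was -0.68 against WT (SE 0.15, adjusted p 0.0842 by edgeR), while its receptor Pdgfrb had 0.15. Grb2 and Pdgfc had -0.27 and -0.56 (adjusted p 0.176 and 0.27). Around Notch3, 17 genes of the Notch pathway were tested, with 13, 11 and 8 above 0 and medians of 0.16, 0.07 and -0.01. The ligand Jag2 had 33.4, 35.2 and 36.9 CPM in hetX753, 31.8, 32.5 and 23.8 CPM in hetL1002P, and 27.8, 25 and 19.2 CPM in WT, with 0.55 (adjusted p 0.133) in hetX753 against WT. The target Hes1 had 10.2, 8.01 and 8.31 CPM in hetX753, 8.22, 8.05 and 12.5 CPM in hetL1002P, and 12.7, 13.7 and 11.6 CPM in WT, with -0.51 (adjusted p 0.18). The protease Adam10, which cuts Notch receptors, had 0.47 (adjusted p 0.205). Jag2 and Hes1 thus lay on opposite sides of 0.

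Of the 21 endothelial genes, 13 were above 0 in hetX753 against WT, 7 in hetL1002P against WT and 16 in hetX753 against hetL1002P, with medians of 0.04, -0.06 and 0.15. Aqp1, the water channel of capillary endothelium, had 301, 378 and 346 CPM in hetX753, 242, 288 and 201 CPM in hetL1002P, and 212, 249 and 233 CPM in WT, with 0.56 in hetX753 against WT (SE 0.15, adjusted p 0.119 by edgeR). Sox18 had -0.74 (adjusted p 0.125) and Fabp4, which adipocytes share, 0.06 (adjusted p 0.848). Of the 16 fibroblast genes, which matter here because fibroblasts can carry Pdgfrb, 1 was above 0 in hetX753 against WT, with a median of -0.35, and 8 in hetL1002P against WT, with a median of -0.01. Their sum was 1800 to 2020 CPM in hetX753, 1490 to 3010 CPM in hetL1002P and 2120 to 2770 CPM in WT, and the order of hetL1002P libraries in that sum, number 2 highest and number 3 lowest, was also that of Pdgfrb. Whether fibroblasts add to the Pdgfrb values was not tested. Lists for macrophages (11 genes), Schwann cells (8), tendon (8), satellite cells (5 of 6 tested) and red cells (1 of 5 tested) also had 0 genes called in any of the 3 comparisons.

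Acta2 has close relatives in muscle, and its reads could be shared with them. Over an alignment of 1150 bases its transcript was 85.0% identical to that of Acta1, with a longest identical stretch of 29 bases, and 84.3% identical to Actg2, also with 29. Acta1 stood at 34800, 39200 and 36200 CPM in hetX753, 40800, 40900 and 48500 CPM in hetL1002P, and 45600, 49900 and 59200 CPM in WT, so it was highest in WT 3. Whether reads shared with Acta1 add to the Acta2 counts was not tested. Mylk and the fibre kinase Mylk2 were 62.5% identical with a longest stretch of 15 bases, and Myh11 and Myh9 75.5% with 65 bases. Tagln exons overlap those of Pcsk7 on the other strand, and the libraries were not stranded by the kit named in the labels, so reads there could belong to either. Pcsk7 had 10.6 to 14.8 CPM over the 9 libraries and log2 fold changes of 0.03 and 0.07 in hetX753 and hetL1002P against WT. The antisense gene E130310I04Rik in Mylk had at most 0.148 CPM.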

How the data were processed

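Gastrocnemius RNA, extracted with a kit for fibrous tissue, was made into TruSeq RNA v2 libraries per the labels' protocols, and the kit does not mark strand. The authors deposited raw counts per gene symbol in 1 table of 24062 genes and 9 libraries, and featureCounts 1.4.6, TopHat2 2.0.14, Bowtie2 2.2.6 and mm10 are named, with no roles, in the submitters' processing notes. The annotation and the treatment of multi-mapping reads were not given in the sources used here. Library columns were matched to samples by title.

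The counts were filtered with filterByExpr (12989 genes left), scaled by TMM and fitted over all 9 libraries by genotype in edgeR 4.0.16 (quasi-likelihood, robust; R 4.3.3), with Benjamini-Hochberg adjustment over all tested genes and a threshold of 0.05. Log2 CPM used a prior count of 2. Library totals ran from 19768149 to 33977252 counts, and the smallest marker had 37 counts or more. The scripts were tested on simulated counts. Alternatives were DESeq2 1.42.0, limma 3.58.1 (voom), other scalings and filters, removal of the length and GC trend (mgcv 1.9.3), the library number as a block, fits of 2 genotypes, and each library left out. Between WT and hetL1002P, same-numbered libraries correlated in their deviations from the genotype means (r 0.285, 0.36 and 0.516, all over the bound of 0.1 set for pairing). The main fit had no block all the same, and the number was a block in alternative fits alone. Differently numbered libraries passed the bound too, such as hetL1002P 2 with WT 1 (0.198) and hetX753 1 with hetL1002P 3 (0.281). The bound therefore does not single out pairs, and the labels say nothing of what a number shares. Same-numbered libraries of hetX753 had r between -0.144 and 0.164 with WT, and between -0.279 and 0.006 with hetL1002P. All library pairs of a genotype differed beyond what sampling of reads gives (chi-square over its degrees of freedom, 15 to 68.7). Table symbols matched a RefSeq gene in 93.72% of cases and a GENCODE transcript, used for length and GC, in 98.43%. The genes named are the 9 markers, up to 3 per list with the smallest p over all genotypes, their close relatives, the 5 genes most alike each marker group among those averaging at least 1 CPM, and Bub1b, besides those marked as picked later. The markers and lists were chosen with earlier results of these data known.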

Additional observations from a re-analysis of the deposited data

How the results depend on the processing

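For the 27 fold changes of the markers (9 markers in 3 comparisons), 567 values were computed under 21 settings each, of which 539 kept the direction and the side of the 0.05 threshold, 27 changed sign and 1 passed the threshold. That 1 was Tagln in hetL1002P against WT under the replicate block with the 2 genotypes alone, which made the count of markers called 1 in place of 0. The block left 0 markers called in every other comparison. The signs that changed belonged to values none of which was called, and the cause was not tested. In hetX753 against WT, Cspg4 and Notch3 had log2 fold changes of -0.16 and -0.06 with the length and GC trend removed, -0.16 and -0.05 with that and the block, and -0.12 and -0.08 with WT 3 and hetL1002P 3 left out. In hetL1002P against WT, Cnn1 had 0.00 with library totals alone, and Cnn1 and Mylk had 0.01 and -0.10 with the trend removed and 0.04 and -0.09 with that and the block. In hetX753 against hetL1002P, Rgs5 had 0.06 with limma-voom, 0.08 with the block over all libraries, 0.05 with that and the trend removed, and 0.05 with the block on 2 genotypes.

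With 1 library left out at a time, the log2 fold changes that changed sign ran as follows. In hetX753 against WT, Acta2 ran from -0.06 to 0.56 and Tagln from -0.13 to 0.41 (both lowest without hetX753 2), and Cspg4 from -0.13 to 0.20 and Notch3 from -0.08 to 0.38 (both lowest without WT 3). In hetL1002P against WT, Cnn1 ran from -0.34 to 0.14 (above 0 without WT 2, hetL1002P 1 or hetL1002P 2) and Myh11 from -0.01 to 0.45 (lowest without WT 3). In hetX753 against hetL1002P, Rgs5 ran from -0.46 to 0.43 and Pdgfrb from -0.27 to 0.04 (both highest without hetL1002P 2; Rgs5 was also 0.01 without hetX753 1), and Mylk from -0.03 to 0.30 (lowest without hetX753 2). The marker pairs correlated at an adjusted p under 0.05, 8 of 36, were 15 with library totals alone, 1 with WT 3 and hetL1002P 3 left out, and 14 without hetX753 2, a setting that for pairs and for summed CPM was chosen after seeing the data, as were the medians and whole-table counts by setting and the sums with WT 3 and hetL1002P 3 left out. Library totals alone moved the median gene by 0.12 in hetX753 against WT.

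Counts over the whole table moved more. In hetX753 against WT, 66 genes became 640 by DESeq2, 31 with library totals, 137 with trend removal and block, 254 with 2 genotypes alone, 106 with the block on these, 340 with WT 3 and hetL1002P 3 left out, and 0 (without WT 1) to 669 (without hetL1002P 3) with 1 library left out. In hetL1002P against WT, 0 genes became 5 by DESeq2, 2 by limma-voom, 2 without a filter, 1 with the trend removed, 635 with the block on 2 genotypes, 2 with both libraries left out and 0 to 1 with 1 left out. In hetX753 against hetL1002P, 15 became 138 by DESeq2, 38 without a filter, 31 with the block, 47 with the trend removed, 48 with both, 5 with 2 genotypes alone, 2 with the block on these, 95 with both libraries left out and 0 to 19 with 1 left out. Over any genotype, 28 became 384 by DESeq2, 16 with library totals, 58 without a filter, 52 with the trend removed, 71 with trend removal and block, 194 with both libraries left out and 0 to 209 with 1 left out. With 3 libraries per genotype, log2 fold changes as large as 1.23 in Cnn1 (SE 0.47) and 0.91 in Rgs5 (SE 0.41) were not called.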

Other observations

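With WT 3 and hetL1002P 3 left out, 2.58% of all genes were called in hetX753 against WT and 0.722% in hetX753 against hetL1002P, and the calls on the listed genes fell in the lists around the markers and not among the 9. In hetX753 against WT, Aqp1 of the endothelium had a log2 fold change of 0.57 (adjusted p 0.0459 by edgeR's quasi-likelihood test), Pcolce, an enhancer of collagen processing in fibroblasts, -0.56 (adjusted p 0.0255), and the fibre genes Acta1 and Tnnc2 -0.38 and -0.46 (adjusted p 0.0363 and 0.0332). In hetX753 against hetL1002P, 6 listed stromal genes were called, all lower in hetX753. They were the collagens Col1a1 (-1.05, adjusted p 0.0326) and Col1a2 (-1, adjusted p 0.0349), Fbn1 (-0.90, adjusted p 0.0169), Pdgfra, the PDGF receptor of fibroblasts (-0.99, adjusted p 0.0304), Cd248 (-0.84, adjusted p 0.0328) and Pcolce (-0.50, adjusted p 0.0492). Leaving out these libraries leaves 2 libraries in hetL1002P and 2 in WT. With all 9 libraries, 0 of these were called in the same comparison by that test. The left-out hetL1002P 3 lay below all hetX753 libraries in Col1a2 (99.1 CPM against 99.7 to 151), Fbn1 (16.7 against 23.2 to 30.5) and Pdgfra (9.92 against 11.4 to 13.5). It lay within their range in Col1a1 (79.5 against 74.4 to 109) and Cd248 (14.7 against 12.1 to 15.1), and above it in Pcolce (32.5 against 26.9 to 28.7). The calls of lower levels in hetX753 therefore depend on leaving that library out.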
